A study of Mus musculus with 4 samples.

Results

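The 8 genes described here encode 4 secreted neurotrophic factors (*Bdnf*, *Gdnf*, *Artn* and *Ntf3*) and 4 receptors of such factors (*Ngfr*, *Ntrk2*, *Ntrk3* and *Gfra1*). They were chosen by name from the 32285 genes of the count matrices and were followed across Schwann, mesenchymal, mural and myeloid cells of the mouse fracture callus. All 8 were detected, with between 387 UMIs (*Artn*) and 13084 UMIs (*Ntrk2*) over all kept cells. A UMI is a molecular tag, so that 1 UMI stands for 1 captured transcript.

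Neurotrophins are small secreted proteins best known for keeping neurons alive and guiding axons. BDNF binds the receptor tyrosine kinase TrkB, encoded by *Ntrk2*, and NT-3, encoded by *Ntf3*, binds mainly TrkC, encoded by *Ntrk3*. All neurotrophins also bind the p75 receptor, encoded by *Ngfr*. GDNF and artemin belong to a separate family. They bind membrane-anchored co-receptors, GFRα1 (*Gfra1*) for GDNF and GFRα3 (*Gfra3*) for artemin, and these signal with the kinase RET or, for GDNF, through the adhesion molecule NCAM. After nerve injury, Schwann cells lose myelin, take up a repair state and are a known source of several of these factors, with p75 as a classical marker of the non-myelinating and repair states.

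The series holds 4 single-cell libraries from tibial fracture callus of wild-type C57BL/6J mice aged 3 months, male by the study's methods. Control mice received vehicle and RA mice received K/BxN serum, by repeated injection from the day of fracture in the study's methods. The serum transfers arthritis-inducing antibodies and serves as a model of systemic inflammation. Callus was collected at 4 and 7 days post fracture (dpf). Each condition is 1 library made from 1 pool of callus cells scraped from the periosteal side of the bone. The series text gives 4 calluses per pool and the study's methods give 3, and the counts do not separate the animals. Hence no test between conditions was possible, no p-value is given, and the 95% intervals cover counting error only. Library order below is always control 4 dpf, control 7 dpf, RA 4 dpf and RA 7 dpf.

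After filtering, 25479 of 34038 barcodes were kept, with 4110 to 8223 cells per library and median depths of 16094 to 17632 UMIs per cell. Pairs of libraries shared 5 to 15 cell barcodes, at most 0.292% of the smaller library. Classes are sets of clusters named from their markers (Schwann-like, mural-like and so on) and are written without that ending below. They held 300 Schwann, 9092 mesenchymal, 832 mural and 10091 myeloid cells. Schwann cells were the scarcest, with 29, 66, 20 and 185 cells, or 0.530%, 0.860%, 0.487% and 2.25% of their libraries. Their identity was clear from *Sox10*, a transcription factor of the Schwann cell lineage, at 338 CPM (mean of 4 libraries) in Schwann cells and at no more than 0.377 CPM in mesenchymal, mural or myeloid cells. Here CPM is the UMIs of a gene per 1000000 UMIs of all genes, summed over the cells of a class in a library. Mural cells, the contractile cells around vessels, were marked by *Rgs5* and *Myh11* (3672 and 2112 CPM), mesenchymal cells by *Prrx1* and *Pdgfra* (580 and 283 CPM) and myeloid cells by *Fcer1g* (1848 CPM). *Prrx1* did not separate mesenchymal from mural cells, where it was at 499.5 CPM with an overlapping library range, and muscle cells held 150 CPM. *Pdgfra* was at 11.8 CPM in mural and 4.03 CPM in muscle cells. Lymphocytes also held *Fcer1g*, at 804 CPM.

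The members lie on different chromosomes. In the mouse genome build GRCm38, *Bdnf* spans chr2:109674700-109727007 (+), *Gdnf* chr15:7810846-7837575 (+), *Artn* chr4:117926162-117929763 (-) and *Ntf3* chr6:126101412-126166910 (-). The receptor genes *Ngfr* and *Ntrk2* lie at chr11:95568818-95587735 (-) and chr13:58806569-59133970 (+), *Ntrk3* at chr7:78175959-78738012 (-) and *Gfra1* at chr19:58235604-58455909 (-). The matrices give UMIs summed per gene, so full-length and truncated forms of the Trk receptors cannot be told apart. RefSeq promoter windows matched 7 of the 8 members. The stretches before the start sites are shown for *Ngfr* and *Gdnf*, which were highest in Schwann cells, and for *Ntrk2*, highest in mural cells, in GRCm38 from 5′ to 3′ on the gene's strand. Capitals mark the GC box, searched as GGGCGG or its complement CCGCCC.
Ngfr promoter, chr11:95587736-95587948 (-): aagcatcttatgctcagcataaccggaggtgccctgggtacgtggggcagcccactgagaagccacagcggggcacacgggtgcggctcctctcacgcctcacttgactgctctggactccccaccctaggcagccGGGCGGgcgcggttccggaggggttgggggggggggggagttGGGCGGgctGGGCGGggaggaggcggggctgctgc
Ntrk2 promoter, chr13:58806319-58806568 (+): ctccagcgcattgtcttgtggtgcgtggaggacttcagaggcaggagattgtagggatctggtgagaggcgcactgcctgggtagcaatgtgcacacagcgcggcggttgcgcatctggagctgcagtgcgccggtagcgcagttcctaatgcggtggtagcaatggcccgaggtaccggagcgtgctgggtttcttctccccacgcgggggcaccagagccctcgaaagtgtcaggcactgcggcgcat
Gdnf promoter, chr15:7809798-7810047 (+): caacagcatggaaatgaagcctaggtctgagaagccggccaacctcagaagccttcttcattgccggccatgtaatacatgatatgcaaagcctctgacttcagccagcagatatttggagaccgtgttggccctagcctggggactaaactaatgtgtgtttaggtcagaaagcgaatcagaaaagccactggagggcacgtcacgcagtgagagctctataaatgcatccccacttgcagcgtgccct
The *Ngfr* stretch of 213 bases held 3 GC boxes and was 70.9% G and C, the *Ntrk2* stretch was 62.8% and the *Gdnf* stretch 50.8%. GC boxes occur in 32.7% of the 32851 annotated promoters over the 250 bases before the start, and in 27.4% over 213 bases. A second annotated *Gdnf* start has its 250 bases at chr15:7813477-7813726, which are 46.8% G and C, hold none of the 3 motifs and are not shown. Neither a SOX core (ACAAAG or CTTTGT, in 16.5% of promoters) nor an AP-1 core (TGANTCA, in 6.75%) was found in the 3 printed stretches, which says only that these letters are not there.

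The members split by cell class. *Gdnf*, *Artn*, *Ngfr* and *Gfra1* were highest in Schwann cells, and *Bdnf*, *Ntf3*, *Ntrk2* and *Ntrk3* were highest in mural cells, among the 4 classes. For 7 of the 8, with each class taken as a whole, every library of the leading class lay above every library of the next class. The exception was *Ntrk3*, whose Schwann cell level in RA at 7 dpf fell within the mural range; without that library the number was 8. Among 19301 genes, 34.4% separated their leading class in the same way, so such a separation was common in these cells.

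**Figure D1:**
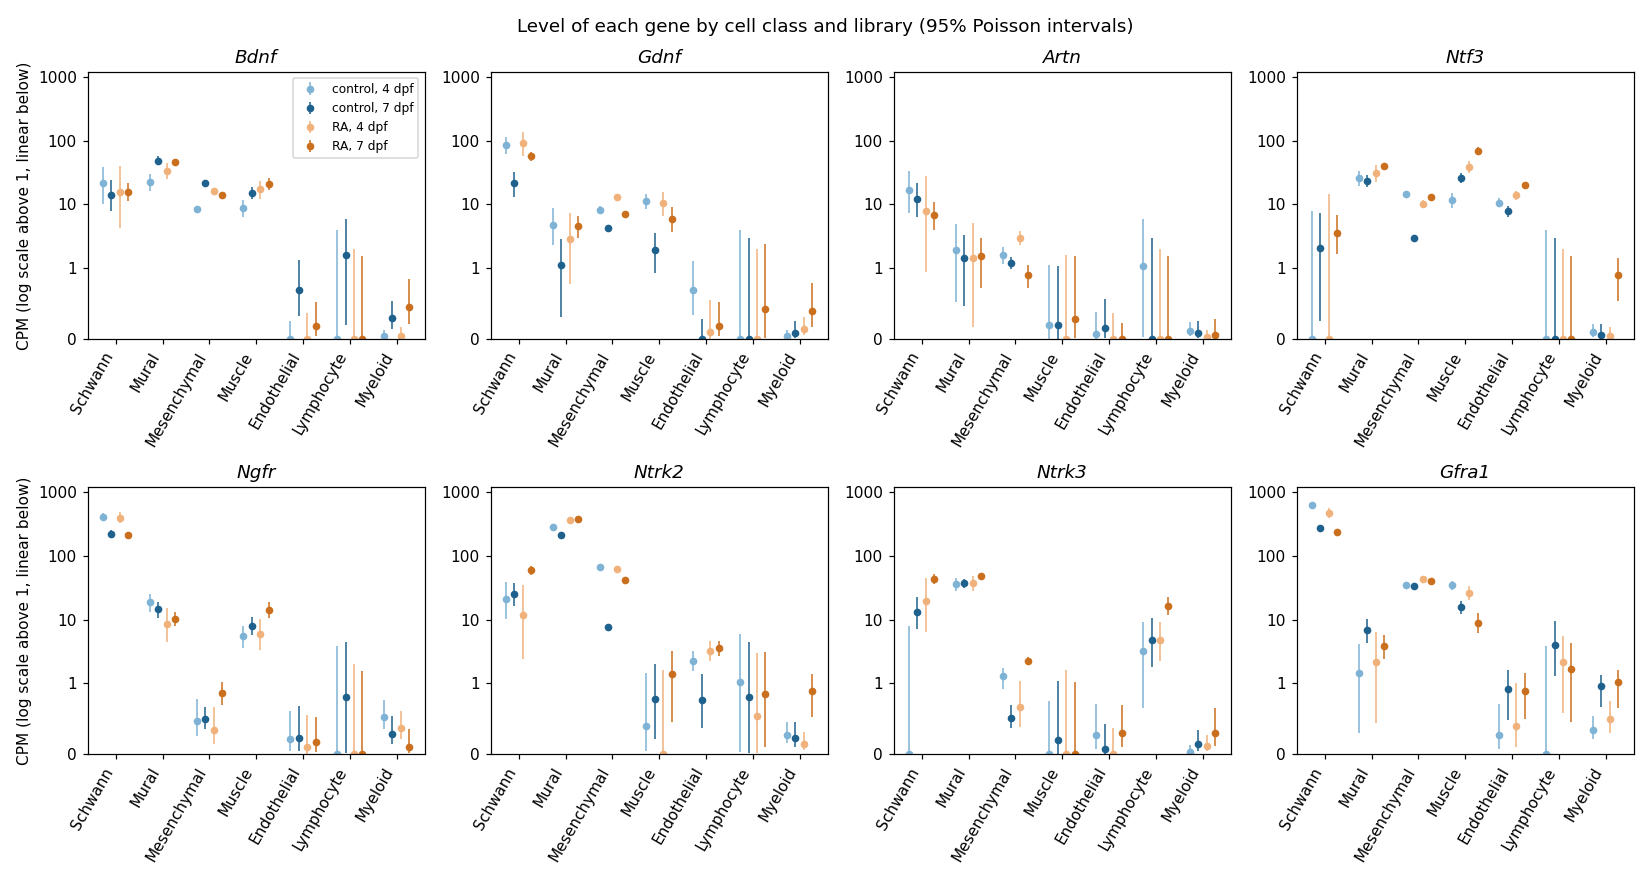
Level of each member (CPM, log scale) in 7 cell classes, with 1 point per library and colours for the 4 libraries. Schwann cells lie highest for *Ngfr* (210 to 413 CPM) and *Gfra1* (238 to 628 CPM), mural cells for *Ntrk2* (210 to 385 CPM), and myeloid cells lie at or below 1.05 CPM for all 8 members.

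Of the ligands, *Gdnf* had its highest level in Schwann cells. Schwann cells held 85.2, 21.3, 90.2 and 57.0 CPM (mean 63.4 ± 31.6, SD, n = 4 libraries), against 4.27 to 12.99 CPM in mesenchymal cells and 1.13 to 4.81 CPM in mural cells. The control 7 dpf library was the lowest of the 4 and still stood above every mesenchymal library. Muscle cells (1.95 to 11.1 CPM) overlapped the mesenchymal range. *Artn*, which encodes artemin, followed the same order at a low level. It was at 17.0, 12.2, 7.85 and 6.82 CPM in Schwann cells (39 UMIs in all) and at 0.895 to 2.98 CPM in mesenchymal cells, and the mesenchymal and mural ranges overlapped.

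*Bdnf* was led by mural cells, with 22.1, 48.7, 33.7 and 45.7 CPM (mean 37.5 ± 12.1). Schwann cells (14.2 to 21.3 CPM), muscle cells (8.69 to 21.0 CPM) and mesenchymal cells (8.43 to 21.9 CPM) formed a second tier with overlapping ranges. The remaining classes were at or below 1.62 CPM. *Ntf3* differed from the other ligands in that Schwann cells nearly lacked it. It was at 0, 2.03, 0 and 3.61 CPM there, where the 2 zeros allow up to 6.39 and 11.8 CPM, the level of 3 counts at this depth. Mural cells held 26.0, 23.5, 30.8 and 39.4 CPM of *Ntf3*, within the wide muscle range (11.5, 26.0, 38.4 and 69.7 CPM). Endothelial cells held 7.78 to 19.8 CPM, and within them *Ntf3* sat in cluster 7, led by the venular genes *Selp*, *Ackr1* and *Vwf* (26.9 CPM, against 3.28 CPM in endothelial cluster 6).

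Among the receptors, *Ngfr* was the member most concentrated in Schwann cells. Its levels there were 413, 222, 400 and 210 CPM (mean 311 ± 110), against 8.60 to 18.8 CPM in mural cells and 0.335 to 0.866 CPM in mesenchymal cells. The ratio of the Schwann to the mural mean was 23.9. Schwann cells were 1.18% of kept cells and held 65.2% of all *Ngfr* UMIs. *Gfra1* was at 628, 273, 471 and 238 CPM in Schwann cells (mean 402 ± 182) and at 34.2 to 43.7 CPM in mesenchymal cells, a ratio of means of 10.5. Muscle cells (8.96 to 34.4 CPM) came next and overlapped the mesenchymal range. For both receptors the 4 dpf libraries were the higher ones in Schwann cells.

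The Trk receptors were highest in mural cells. *Ntrk2* was at 287, 210, 360 and 385 CPM in mural cells (mean 310 ± 79.1), 6.92 times the mesenchymal mean. Mesenchymal libraries spanned a wide range, 67.8, 7.68, 62.1 and 41.9 CPM, and overlapped the Schwann range of 11.8 to 59.4 CPM. *Ntrk3* was at 36.1, 37.1, 37.3 and 48.5 CPM in mural cells (mean 39.7 ± 5.85). In Schwann cells *Ntrk3* ranged from 0 UMIs in control at 4 dpf, which by the same limit of 3 counts allows up to 6.39 CPM, to 43.4 CPM in RA at 7 dpf. Lymphocytes, at 3.19 to 16.5 CPM, came next, and the remaining classes were at or below 2.32 CPM in every library.

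Level in CPM and total UMIs were different matters, because mesenchymal cells were numerous and deep. Mesenchymal cells were 35.7% of kept cells and, being deep, held a larger share of the UMIs of all genes. They held 236844351 UMIs, against 152021352 in myeloid cells, which were 39.6% of kept cells. A share of a gene's UMIs above 35.7% is therefore not in itself a higher level. They held 81.3% of *Bdnf*, 79.1% of *Gdnf*, 79.8% of *Artn*, 81.2% of *Gfra1*, 64.3% of *Ntrk2* and 56.3% of *Ntf3* UMIs, but 28.7% of *Ntrk3* and 9.43% of *Ngfr* UMIs. Mural cells, 3.27% of kept cells, supplied 47.2% of *Ntrk3* and 30.9% of *Ntrk2* UMIs.

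The same classes stood out by the share of cells with at least 1 UMI. Each cell was thinned to 4000 UMIs for this, since median depth was 25456 UMIs in mesenchymal, 11951 in Schwann, 12992 in mural and 12999 in myeloid cells. *Gfra1* was seen in 51.7% of Schwann cells (95% interval 45.9% to 57.5%, 73.0% unthinned) and *Ngfr* in 45.0% (39.3% to 50.8%, 65.0% unthinned). *Gdnf* was seen in 19.3% of Schwann cells and *Ntrk2* in 50.5% of mural cells (47.0% to 53.9%, 68.3% unthinned). Myeloid cells and lymphocytes were taken as the background of free RNA. Myeloid cells gave 0.0198% to 0.218% over the 8 members. Lymphocytes gave 2.10% for *Ntrk3*, 1.12% for *Gfra1* and at most 0.280% for the other members. Lymphocyte *Ntrk3* (3.19 to 16.5 CPM) lay above every mesenchymal library (at most 2.24 CPM), so lymphocytes are not read as background for *Ntrk3*. The *Ntrk3* share was 0.374% in mesenchymal and 0.0694% in myeloid cells. The Schwann share of *Ntf3*, 0.667% (0.0808% to 2.39%), rested on 2 cells.

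**Figure D2:**
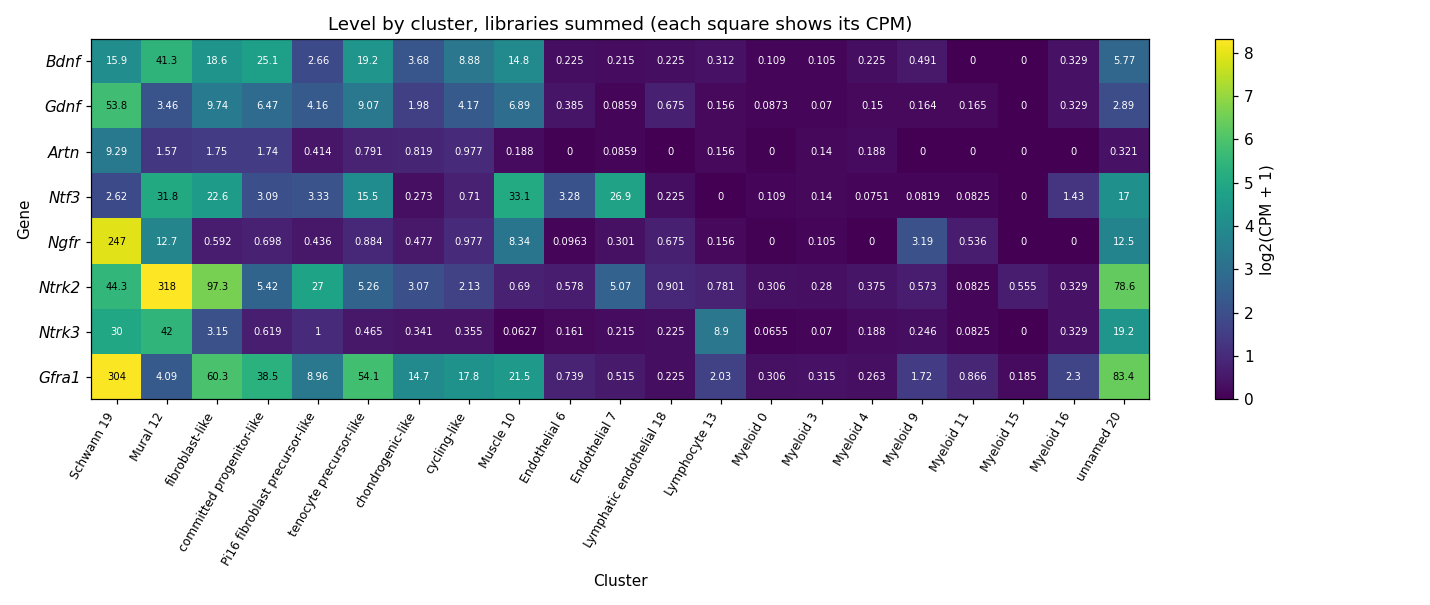
Heat map of the members' levels (CPM, libraries summed, logarithmic colour scale) in the 21 clusters, grouped by class. The Schwann cluster is the highest for *Ngfr* and *Gfra1*, and *Gfra1* is next highest in the unnamed cluster 20 (83.4 CPM), fibroblast-like (60.3 CPM) and tenocyte precursor-like (54.1 CPM) cells.

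Schwann cells were next divided by UMIs of the myelin genes *Mag* and *Prx*, a split set after the values were seen. The 96 cells with at least 2 such UMIs held 103 CPM of *Ngfr* (86.1 to 122), the 59 cells with 1 held 356 (316 to 400) and the 145 cells with none held 293 (271 to 317). Thus *Ngfr* was lowest in the most myelinating cells, whose *Mbp*, a myelin gene, was at 1982 CPM against 131 CPM in the cells with none. *Gfra1* ran the other way, at 385 CPM (352 to 420) in the cells with at least 2 UMIs and at 267 and 269 CPM in the others. *Gdnf* did not separate clearly (41.3, 45.1 and 64.7 CPM, intervals 30.9 to 54.0, 31.6 to 62.5 and 54.3 to 76.5). *Artn* was at 3.12, 13.8 and 11.3 CPM on 4, 11 and 24 UMIs. Median depth was 12120, 11820 and 11550 UMIs in the 3 sets.

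Mural cells were divided in the same way by the pericyte genes *Kcnj8*, *Abcc9* and *Higd1b*. The 537 cells with at least 2 such UMIs held 232 CPM of *Ntrk2* (222 to 242) and the 206 cells with none held 528 (501 to 555), with the 89 cells with 1 between them at 420 (386 to 457). *Ntf3* was also lowest in the cells with at least 2, at 19.03 CPM (16.2 to 22.2), against 60.1 (47.5 to 75.1) in those with 1 and 57.3 (48.8 to 66.7) in those with none. In RA at 4 dpf, where the set with none had 12 cells, it was at 27.1 CPM with at least 2 and 24.4 CPM with none. *Ngfr* was the reverse, 18.1 CPM (15.4 to 21.2) against 1.75 (0.567 to 4.08). *Bdnf* was at 38.0 and 49.9 CPM and *Ntrk3* at 35.3 and 52.0 CPM. The order was reversed for *Bdnf* in control at 7 dpf (53.1 and 30.1 CPM) and for *Ntrk3* in control at 4 dpf (38.9 and 20.2 CPM, with 16 cells in the set with none). Median depth was 13650 UMIs with at least 2 pericyte UMIs and 11120 with none. *Myh11*, a smooth muscle myosin, was at 1550 and 2965 CPM, so the set without pericyte UMIs was the one richer in a smooth muscle transcript.

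Within the mesenchymal class, 6 clusters were named from fixed markers, and the members had been left out of the genes used for clustering. Over these clusters, 7 of the 8 members differed at least 4-fold between the highest and the lowest (28.6% of 17941 genes did so), and *Ngfr* differed 2.24-fold. *Ntrk2* was highest in fibroblast-like cells, at 97.3 CPM, against 27.02 in *Pi16* fibroblast precursor-like cells and 2.13 to 5.42 in the other 4 clusters. *Ntf3* was also highest in fibroblast-like cells (22.6 CPM), followed by tenocyte precursor-like cells (15.5 CPM). In control at 4 dpf fibroblast-like cells held 39.7 CPM of *Ntf3*, above mural cells (26.0 CPM). In the other libraries they were below mural cells. *Bdnf* had another pattern, with 25.1 CPM in committed progenitor-like, 19.2 in tenocyte precursor-like, 18.6 in fibroblast-like and 2.66 in *Pi16* fibroblast precursor-like cells, with the libraries summed. Its order differed by library. Fibroblast-like cells ranged from 4.96 CPM in control at 4 dpf to 31.9 CPM in control at 7 dpf, where they were the highest. Tenocyte precursor-like cells were the highest in RA at 4 dpf (41.3 CPM), above mural cells in that library (33.7 CPM). In the other libraries tenocyte precursor-like cells were below mural cells for *Bdnf*. *Gfra1* was at 60.3, 54.1 and 38.5 CPM in fibroblast-like, tenocyte precursor-like and committed progenitor-like cells, although tenocyte precursor-like cells were the highest in control at 7 dpf (65.9 CPM) and below committed progenitor-like cells in RA at 4 dpf (25.6 and 30.9 CPM). *Gdnf* ranged from 1.98 CPM in chondrogenic-like to 9.74 CPM in fibroblast-like cells, with the libraries summed. In control at 7 dpf fibroblast-like cells (3.765 CPM) were below tenocyte precursor-like (7.26 CPM) and committed progenitor-like cells (5.51 CPM). In RA at 7 dpf chondrogenic-like cells (4.43 CPM) were above *Pi16* fibroblast precursor-like cells (3.29 CPM). Without the RA 7 dpf library, the number of members past 4-fold was 6.

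**Figure D3:**
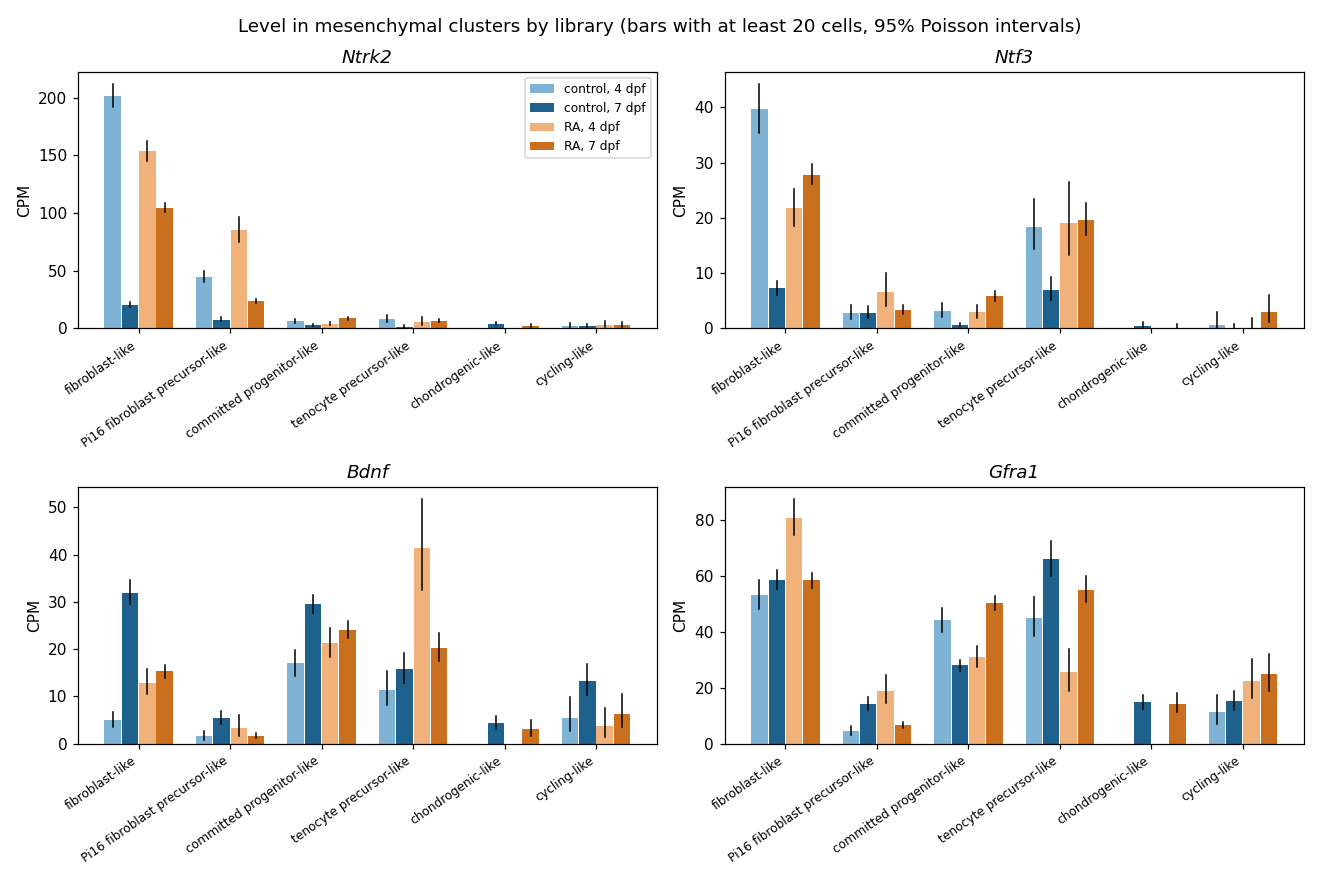
Levels (CPM with 95% counting intervals) of members in the mesenchymal clusters, with 1 bar per library; chondrogenic-like cells at 4 dpf had under 20 cells and are left out. In fibroblast-like cells the *Ntrk2* bars stand at 202, 20.5, 154 and 105 CPM, with the control 7 dpf bar far below the other three.

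RA was compared with control at each time, with 1 library per condition, so treatment and library cannot be told apart. A member was counted where at least 50 UMIs over both libraries were seen and the ratio of CPM was at least 2 or at most 0.5. At 4 dpf almost none was. In Schwann cells 0 of the 3 members with enough UMIs passed (8.35% of 2837 genes did), in mesenchymal cells 0 of 7 (3.70% of 14254 genes) and in mural cells 1 of 5 (2.43% of 7690 genes). The 1 was mural *Ngfr*, at 8.60 CPM in RA and 18.8 CPM in control (12 and 39 UMIs), a ratio of 0.459 (0.219 to 0.894). With cells assigned by their own markers it was -0.86 on the log2 scale and no longer counted.

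Other values at 4 dpf lay closer to 1. In Schwann cells *Ngfr* had a ratio of 0.969 (0.755 to 1.24), *Gdnf* of 1.06 (0.606 to 1.81) and *Gfra1* of 0.750 (0.601 to 0.930). In mesenchymal cells *Bdnf* was 1.91 times higher in RA (1.62 to 2.25) and *Artn* 1.87 times (1.28 to 2.75), just inside the limit. Mesenchymal *Ntrk2* had a ratio of 0.916 (0.857 to 0.980), and *Ntrk3*, on 16 and 39 UMIs, of 0.518 (0.270 to 0.948). As an alternative the mesenchymal clusters were weighted equally, by averaging their log2 ratios with 1 CPM added to each level. The log2 ratio of *Ntrk3* was then 0.17, against -0.95 over all cells. The positive value rested on tenocyte precursor-like (4 and 0 UMIs) and cycling-like cells (3 and 0 UMIs). *Ntrk3* was lower in RA in fibroblast-like (6 and 27 UMIs), committed progenitor-like (2 and 5) and *Pi16* fibroblast precursor-like cells (1 and 7). The log2 ratio of *Ntrk3* was -1.002 without called doublets, -1.02 with TMM scaling and -1.43 without the tenocyte precursor-like and chondrogenic-like clusters, each of which counts it.

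At 7 dpf more members were higher in RA, and none was lower by the rule. In mesenchymal cells 3 of 8 passed, all higher (6.58% of 17334 genes passed either way). *Ntrk2* was at 41.9 CPM in RA and 7.68 CPM in control, a ratio of 5.46 (5.02 to 5.95). *Ntf3* was at 13.1 and 2.95 CPM, a ratio of 4.45 (3.87 to 5.12), and *Ntrk3* at 2.24 and 0.517 CPM, a ratio of 4.34 (3.11 to 6.18). For *Ntrk2* and *Ntf3*, the control 7 dpf library was the one set apart, since both control and RA libraries at 4 dpf lay well above it. *Bdnf* had the opposite direction, with a ratio of 0.648 (0.604 to 0.695). *Ngfr* had a log2 ratio of 0.81, and of 1.07, which counts it, in clusters made without integration. The median log2 ratio over the 8 members was 0.759, against -0.0448 over all genes tested.

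These ratios were smaller when the log2 ratios of the mesenchymal clusters were averaged with equal weight and 1 CPM added to each level. The log2 ratio was then 1.05 for *Ntrk2* (2.45 over all cells, nothing added), 1.15 for *Ntf3* (2.15) and 0.49 for *Ntrk3* (2.12). By that measure *Ntrk3* was not counted. A pseudocount of 1 CPM alone lowered *Ntrk3* to 1.10, so 0.49 does not show equal weight by itself. Outside fibroblast-like cells, *Ntrk3* was at most 1.52 CPM in RA and 0.873 CPM in control, close to the added 1 CPM. Within clusters, *Ntrk2* was higher in RA at 7 dpf in fibroblast-like cells (ratio 5.11, 4.60 to 5.68), committed progenitor-like cells (3.13), *Pi16* fibroblast precursor-like cells (3.07) and tenocyte precursor-like cells (4.77), whereas in chondrogenic-like cells the ratio was 0.463 on 9 and 35 UMIs. *Ntf3* had ratios of 3.85, 10.2, 1.18 and 2.82 in the first 4 of these clusters, and the interval in *Pi16* fibroblast precursor-like cells included 1 (0.771 to 1.83). *Ntrk3* rested mainly on fibroblast-like cells, at 5.31 CPM in RA and 0.458 CPM in control (171 and 9 UMIs), a ratio of 11.6 (5.97 to 25.8). It was also higher in RA in *Pi16* fibroblast precursor-like cells, at 1.52 and 0.0887 CPM (37 and 1 UMIs), a ratio of 17.2 (2.90 to 696). *Ntrk3* was lower in RA in committed progenitor-like (14 and 26 UMIs) and cycling-like cells (0 and 1 UMIs). *Bdnf* was lower in RA in fibroblast-like (0.478, 0.424 to 0.539) and *Pi16* fibroblast precursor-like cells (0.317) but 1.29 (1.01 to 1.66) in tenocyte precursor-like cells. *Gdnf* was 2.75 times higher (2.13 to 3.58) in fibroblast-like cells and near 1 in committed progenitor-like cells (1.11, 0.892 to 1.38). *Gfra1* was 1.79 times higher in committed progenitor-like cells and 0.458 in *Pi16* fibroblast precursor-like cells, for which the 4 dpf ratio had been 4.16 (2.67 to 6.58).

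Fibroblast-like cells were not alike across libraries. The summed level of the 4 fibroblast markers was 1701, 674, 1440 and 1574 CPM in that cluster and that of the 4 committed progenitor markers 3265, 7472, 3736 and 4752 CPM, so the control 7 dpf library was again the one apart. In the fibroblast-like cells with at least 1000 CPM of fibroblast markers (174, 170, 127 and 874 cells, a limit set after the values were seen), *Ntrk2* was at 231, 62.4, 205 and 128 CPM. The RA to control ratio at 7 dpf was then 2.05 (1.79 to 2.37), against 6.24 (5.32 to 7.34) in the fibroblast-like cells below the limit. For *Ntf3* the ratios were 1.44 (1.14 to 1.84) and 5.28 (3.98 to 7.09), and for *Bdnf* 0.879 (0.672 to 1.17) and 0.385 (0.323 to 0.456). The part of the fibroblast marker level in the differences was not tested. After thinning, *Ntrk2* was seen in 48.8%, 8.27%, 39.5% and 27.6% of fibroblast-like cells.

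In Schwann cells at 7 dpf, 3 of the 6 members with enough UMIs were counted, all higher in RA (6.25% of 8063 genes were counted either way). *Gdnf* was at 57.0 CPM in RA and 21.3 CPM in control (142 and 21 UMIs), a ratio of 2.67 (1.68 to 4.45). *Ntrk2* was at 59.4 and 25.4 CPM (148 and 25 UMIs), a ratio of 2.34 (1.52 to 3.73), and *Ntrk3* at 43.4 and 13.2 CPM (108 and 13 UMIs), a ratio of 3.28 (1.84 to 6.36). *Ngfr* (0.947, 0.807 to 1.12), *Gfra1* (0.869, 0.751 to 1.01) and *Bdnf* (1.10, 0.584 to 2.19) had intervals that included 1. In the Schwann cells without UMIs of *Mag* and *Prx* the ratio was 1.36 (0.773 to 2.54) for *Ntrk2*, 2.16 (1.01 to 5.31) for *Ntrk3* and 2.98 (1.58 to 6.18) for *Gdnf*. In those with at least 2 it was 3.45 (1.58 to 8.90) for *Ntrk2*. Levels of markers of other classes in the Schwann cluster differed between these libraries. The 11 myeloid markers summed to 2815, 3296, 90.2 and 384 CPM, the 7 mesenchymal markers to 1463, 4140, 1954 and 6738 CPM and the 8 mural markers to 247, 95.6, 98.1 and 65.8 CPM. Leaving out the 16 Schwann cells with at least 0.5% of UMIs from myeloid markers lowered the log2 ratio of *Ntrk2* from 1.23 to 0.96, below the limit, and gave 1.28 for *Gdnf* (1.42) and 1.70 for *Ntrk3* (1.71). In Schwann cells the mural markers *Cspg4* and *Rgs5* averaged 62.5 and 26.6 CPM, against 176 and 3672 CPM in mural cells. The mesenchymal markers *Postn* and *Prrx1* averaged 1065 and 17.0 CPM there, against 3445 and 580 CPM in mesenchymal cells. Thus the sums need not count transcripts of other cells alone. The part of the mesenchymal and mural markers in these ratios was not tested.

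Mural cells showed no member past the limit at 7 dpf, 0 of 5 (2.35% of 10669 genes). *Ntrk2* came nearest, at 385 CPM in RA and 210 CPM in control, a ratio of 1.84 (1.69 to 2.00), followed by *Ntf3* with 1.68 (1.30 to 2.18). The *Ntrk2* ratio was 2.89 (2.51 to 3.34) in the cells with at least 2 pericyte UMIs and 1.34 (1.19 to 1.51) in those with none. With cells assigned by their own markers the log2 ratio was 1.37 for *Ntrk2* and 1.96 for *Ntrk3*, against 0.88 and 0.39 by clusters, which would count both. In myeloid cells 0 of 1 member with enough UMIs was counted (3.95% of 13116 genes), *Gfra1* at 1.05 and 0.958 CPM.

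**Figure D4:**
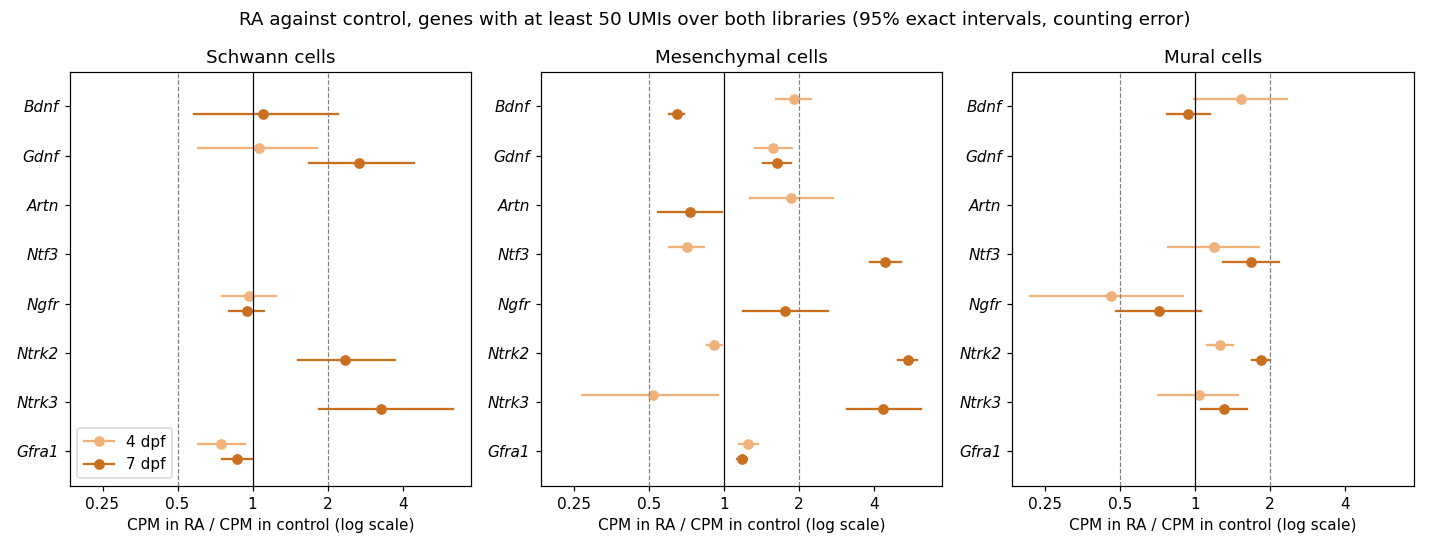
Ratio of CPM in RA to control (log axis, bars for 95% counting intervals) for each member with enough UMIs, by class, at 4 and 7 dpf. At 4 dpf the points lie between 0.459 (mural *Ngfr*) and 1.91 (mesenchymal *Bdnf*), and at 7 dpf mesenchymal *Ntrk2*, *Ntf3* and *Ntrk3* lie at 5.46, 4.45 and 4.34.

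The comparison of 7 with 4 dpf used the same 4 libraries as the comparison of RA with control, so the values are not independent of those above. In control Schwann cells 2 of 3 members were counted, both lower at 7 dpf (5.07% of 5111 genes). These were *Gdnf*, with a ratio of 0.251 (0.140 to 0.435), and *Gfra1*, with 0.435 (0.368 to 0.515). *Ngfr* was just inside the limit at 0.536 (0.440 to 0.654). With looser cell limits and cells assigned by their own markers, *Gfra1* was at -0.98 on the log2 scale (-1.20 by clusters) and no longer counted. In RA Schwann cells the 7 to 4 dpf ratio was 0.525 (0.424 to 0.655) for *Ngfr* and 0.505 (0.414 to 0.620) for *Gfra1*, so both receptors were lower at 7 dpf in either condition. For *Gdnf* it was 0.632 (0.405 to 1.03) in RA. In RA, 2 of 5 members were counted, both higher at 7 dpf (12.8% of 7227 genes). *Ntrk2* had a ratio of 5.05 (1.69 to 24.8) on 148 and 3 UMIs, and *Ntrk3* of 2.21 (0.918 to 6.94) on 108 and 5 UMIs, with an interval that included 1.

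In control mesenchymal cells 4 of 8 members were counted (7.68% of 16076 genes). *Bdnf* was higher at 7 dpf, 21.9 against 8.43 CPM, a ratio of 2.59 (2.27 to 2.97). *Ntrk2* was lower, with a ratio of 0.113 (0.104 to 0.124), as were *Ntf3* with 0.204 (0.173 to 0.239) and *Ntrk3* with 0.399 (0.252 to 0.634). With the mesenchymal clusters weighted equally, again with 1 CPM added, the log2 ratios moved from -3.14 to -1.67 for *Ntrk2* and from -2.30 to -1.12 for *Ntf3*. That of *Ntrk3* moved from -1.32 to -0.30 and was not counted by this measure. *Gdnf* lay just inside the limit (-0.95) and was counted with TMM scaling (-1.04). In RA mesenchymal cells 3 of 8 were counted (7.10% of 16431 genes). *Ngfr* (2.58, 1.26 to 6.17, on 88 and 8 UMIs) and *Ntrk3* (3.35, 2.02 to 5.95, on 228 and 16 UMIs) were higher at 7 dpf and *Artn* lower (0.301, 0.218 to 0.416). With the clusters weighted equally and 1 CPM added, the log2 ratios of these 3 were 0.58, 0.10 and -0.86, and none was counted. Their cluster levels were at most 5.31 CPM, so the added 1 CPM also lowers such ratios. The 2 effects were not separated. *Ntrk2* in RA mesenchymal cells had a ratio of 0.675 (0.636 to 0.717) and *Bdnf* of 0.880 (0.786 to 0.987). Beside these values, the 8 Schwann cell markers summed to 62.9 CPM in RA mesenchymal cells at 4 dpf, 84.2 at 7 dpf and 72.6 in control at 7 dpf, and the myelin gene *Mbp* was at 5.62, 11.1 and 4.90 CPM. Their part in the low mesenchymal *Ngfr* and *Ntrk3* values was not tested.

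Few mural members differed by time. In control 1 of 5 members was counted (3.98% of 9255 genes), *Bdnf*, at 48.7 CPM at 7 dpf and 22.1 CPM at 4 dpf, a ratio of 2.20 (1.58 to 3.12). In RA 0 of 5 were counted (5.32% of 9987 genes), and *Bdnf* had a ratio of 1.36 (0.990 to 1.89). By the markers of each cell, the log2 ratio of *Ntrk3* in control was -1.61, against 0.04 by clusters. In control myeloid cells *Gfra1* was the 1 member with enough UMIs and was counted (4.39% of 13843 genes), at 0.958 and 0.347 CPM, which is within 1 CPM of 0 and was 0.54 on the log2 scale with a pseudocount of 1 CPM.

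The other genes of these pathways were followed as a list of 23. In Schwann cells 8 had enough UMIs at 4 dpf, of which 3 were higher and 1 lower in RA, and 12 at 7 dpf, of which 2 were higher and 1 lower, against 8.35% and 6.25% of all genes counted either way. *Gfra3*, the artemin co-receptor, was at 14.9, 19.3, 208 and 99.6 CPM, with ratios of 13.95 (6.32 to 36.4) at 4 dpf and 5.15 (3.23 to 8.71) at 7 dpf. Schwann cells held 91.3% of its 358 UMIs. Both RA libraries lay above both control libraries, whereas its ligand *Artn* was at 17.0 and 12.2 CPM in the control and 7.85 and 6.82 CPM in the RA libraries, on 8, 12, 2 and 17 UMIs. *Ncam1*, which encodes NCAM, was at 89.4, 159, 290 and 348 CPM (ratios 3.25 and 2.20). *Gfra2*, the neurturin co-receptor, was at 36.2, 85.4, 133 and 108 CPM, with ratios of 3.69 at 4 dpf and below the limit at 7 dpf. The gene lower in RA at both times was *Cntf*, a neurotrophic cytokine of myelinating Schwann cells, at 113, 131, 51.0 and 41.3 CPM (0.452, 0.226 to 0.841, and 0.315, 0.241 to 0.412). *Cntf* was at 162 CPM in the Schwann cells with at least 2 UMIs of *Mag* and *Prx* and at 32.1 CPM in those with none. At 7 dpf the set with at least 2 held 390 CPM in control and 66.2 CPM in RA (18 and 61 cells, ratio 0.170, 0.120 to 0.237). The set with none held 21.4 CPM in control and 30.6 CPM in RA. *Ret*, the kinase partner of the GFRα co-receptors, had 4 UMIs in Schwann cells, at most 1.20 CPM in any library. The p75 partners *Sort1* (79.3 to 118 CPM) and *Sorcs2* (90.2 to 150 CPM) were present in all 4 Schwann libraries.

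In mural cells 7 genes of the list had enough UMIs at 4 dpf and none was counted, and at 7 dpf 1 of 9 was, *Ncam1*, lower in RA (0.451, 0.329 to 0.616). In mesenchymal cells 1 of 19 genes was higher (*Rtn4r*, at 2.05 and 0.996 CPM) and 2 were lower in RA at 4 dpf. The lower ones were *Ret*, at 5.36 CPM in RA and 15.04 CPM in control (0.357, 0.291 to 0.435), and *Pcsk6*, a proprotein convertase, at 22.1 and 61.7 CPM (0.358). At 7 dpf 0 of 19 were counted. In myeloid cells 1 gene was higher and 1 lower of 12 at 4 dpf, and 2 were higher and 1 lower of 13 at 7 dpf. At 4 and 7 dpf the shares of all genes counted either way were 2.43% and 2.35% in mural, 3.70% and 6.58% in mesenchymal and 4.66% and 3.95% in myeloid cells. *Furin*, a convertase that cleaves proneurotrophins, was at 59.0 to 83.0 CPM in Schwann cells and was not counted in either comparison of RA with control.

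Repair and myelin genes were read in the same Schwann cells. Of 6 repair Schwann cell genes (*Shh*, *Olig1*, *Sox2*, *Jun*, *Gap43* and *Runx2*), 4 had enough UMIs. In RA 1 was higher at 4 dpf and 0 at 7 dpf, against 8.35% and 6.25% of all genes counted either way. The 1 was *Runx2*, at 302, 171, 667 and 206 CPM, with a ratio of 2.21 (1.76 to 2.78). *Sox2* was at 177, 111, 286 and 165 CPM, *Jun* at 826, 467, 792 and 675 CPM and *Gap43* at 468, 152, 294 and 172 CPM. *Gap43* and *Gfra1* were each lower at 7 than at 4 dpf in control and in RA. *Olig1* had 67 UMIs and *Shh* had 7. None of the 6 myelin genes was counted at either time (4 and 6 with enough UMIs), beside the same shares of all genes. With so few genes, the counts of these lists are not read as a result. *Mbp* and *Pmp22* were at 615 to 918 and 1122 to 1489 CPM.

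**Figure D5:**
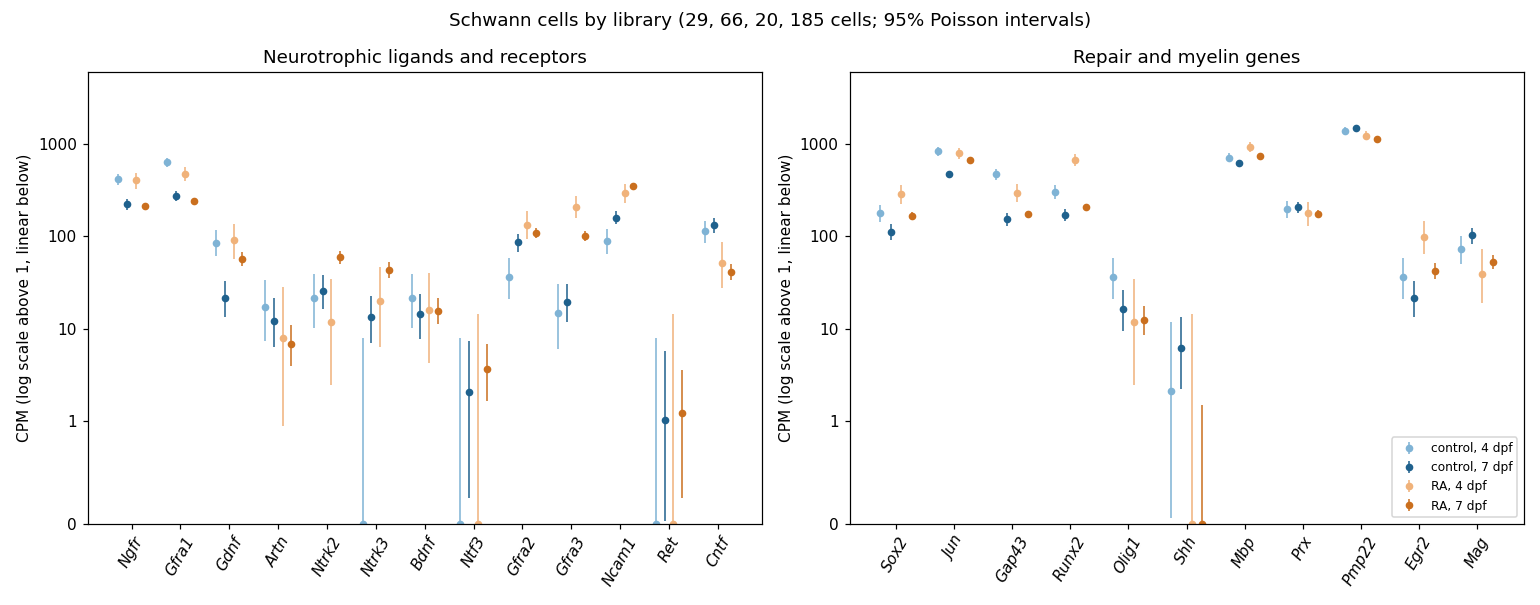
Schwann cell levels (CPM, log scale, 95% counting intervals) of members, pathway genes, repair genes and myelin genes, with 1 point per library (29, 66, 20 and 185 cells). *Gfra3* separates both RA libraries (208 and 99.6 CPM) from both control libraries (14.9 and 19.3 CPM), while *Ngfr* separates the 4 dpf from the 7 dpf libraries.

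Genes with the most similar pattern were found by Pearson's r of log2(CPM + 1) over 80 cluster and library combinations, which share libraries and depth. For *Gdnf* the closest gene was *Gfra1* (r = 0.905), followed by *Gpm6b* (0.881) and *Ank3* (0.877). *Gfra1* was closest to *Tenm3* (0.918), *Pcdh9* (0.907) and *Gdnf* (0.905), so the ligand and its co-receptor were among each other's nearest 3. *Ngfr* was closest to *Bcas1* (0.898), *Dtna* (0.884) and *Sorcs1* (0.880), and *Artn* to *Gldn* (0.872), *Mgat3* (0.856) and *Tfap2a* (0.843). *Bdnf* was closest to *Cdh2* (0.922), *Arhgef17* (0.914) and *Kctd15* (0.908). The mural receptors had other neighbours, *Adcy5* (0.866), *Ildr2* (0.852) and *Fgf1* (0.836) for *Ntrk2* and *Egflam* (0.759), *Igsf9b* (0.759) and *Sema5b* (0.756) for *Ntrk3*. *Ntf3* was closest to *Fam124a* (0.848) and *Zhx3* (0.789).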

How the data were processed

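The authors deposited, for each of 4 libraries, a matrix of UMI counts per gene and cell barcode from 3′ chemistry, made with Cell Ranger 7.0.1 on mm10 according to the submitters' processing notes. Cells with 4000 to 50000 UMIs, 2000 to 7000 detected genes and at most 8% mitochondrial UMIs were kept. Totals were 83405494 to 156567619 UMIs per library in kept cells. Cells were clustered in Seurat 5.3.0 (R 4.3.3) on 2000 variable genes without the members, 30 CCA dimensions, 15 principal components and resolution 0.5, which gave 21 clusters. Clusters were named from marker lists. Cluster 20, with 46.2% called doublets, was left unnamed. Scrublet (scanpy 1.11.5) called 592 doublets (2.32%), which were kept and left out as an alternative. Counts were summed per class and library in Python 3.11.15 (numpy 2.4.6, scipy 1.17.1, pandas 2.3.3) and given as CPM with exact Poisson intervals. Ratios had exact conditional intervals, and shares Clopper-Pearson intervals, all at 95%. The calculations were tested on simulated data. The members and gene lists were chosen with earlier results of these data known. All 8 members were named, pathway genes with at least 10 CPM in 1 class were eligible, and *Rtn4r*, below that level, was named after its values were seen. A few genes are not reported here. Name and split thresholds were also set after seeing values.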

Additional observations from a re-analysis of the deposited data

Results flagged for a closer look

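In mesenchymal cells *Bdnf*, *Artn*, *Ntf3*, *Ntrk2* and *Ntrk3* had RA to control ratios on opposite sides of 1 at 4 and 7 dpf. The share of all genes that did so was not computed, so their number is not read as a result. The median log2 ratio over all genes tested was 0.0413 at 4 dpf and -0.0448 at 7 dpf. With 1 library per condition the difference between the time points was not tested. *Bdnf* had a ratio of 1.91 at 4 dpf and 0.648 at 7 dpf, and *Artn* of 1.87 and 0.735. *Ntf3* had a ratio of 0.711 at 4 dpf and 4.45 at 7 dpf, *Ntrk2* of 0.916 and 5.46, and *Ntrk3* of 0.518 and 4.34. With the mesenchymal clusters weighted equally and 1 CPM added, *Ntrk3* lay above 1 at both times (log2 ratios of 0.17 and 0.49). The 4 dpf value rested on 4 UMIs in tenocyte precursor-like and 3 UMIs in cycling-like cells in RA, against 0 in control.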

How the results depend on the processing

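The number of members whose leading class stood apart was 7 of 8 under every alternative run for the classes, and 7 to 8 when each library was left out in turn. Across mesenchymal clusters, 6 to 7 members differed 4-fold or more when each library was left out in turn. For RA against control at 4 dpf the number of members past 2-fold, summed over classes, was 1. It was 2 without called doublets, 2 without the tenocyte precursor-like and chondrogenic-like clusters (added after seeing the data), 2 with TMM scaling, 2 with a minimum of 10 UMIs, and 0 with classes by the markers of each cell, also with looser cell limits. At 7 dpf the number was 6, with 12 at a minimum of 10 UMIs and 5 to 8 otherwise. For 7 against 4 dpf in RA it was 5, with 3 under a pseudocount of 1 CPM and 12 at a minimum of 10 UMIs. It was 2 with the mesenchymal clusters weighted equally and 1 CPM added. Of the 24 genes most like a member, 10 were shared with those from cluster sums over all 4 libraries. The causes were not tested. No paired analysis was possible because each condition has 1 library. With 20 Schwann cells in RA at 4 dpf, a count of 0 there allows up to 11.8 CPM (3 counts).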

Other observations

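*Ngfr* was at 3.19 CPM (2.27 to 4.37, 39 UMIs) in myeloid cluster 9, whose leading genes include *Ccr7*, *Cd209a* and *H2-Eb1*, against a myeloid class mean of 0.324 CPM. The unnamed cluster 20 of 143 cells, led by *Apod*, *Tenm2* and *Gpc3*, held 83.4 CPM of *Gfra1*, 78.6 CPM of *Ntrk2*, 17.0 CPM of *Ntf3* and 12.5 CPM of *Ngfr*, and 46.2% of its cells were called doublets.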
